A study of Saccharomyces cerevisiae with 24 samples.

Results

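The heat shock response was followed in RNA that was isolated with hot phenol, in 8 of the 24 RNA-seq libraries of the study. These 8 libraries are the columns of the deposited TPM table whose labels say Phenol, 4 from unstressed cells kept at 30 °C and 4 from cells held for 20 min at 37 °C. All of them come from BY4741, a haploid laboratory strain of budding yeast of mating type a with genotype MATa, so every group carries the same auxotrophic alleles his3∆1, leu2∆0, met15∆0 and ura3∆0. Cells were grown in synthetic complete medium, an unstressed sample was removed from each of 4 biological replicate cultures, and the rest was brought to the higher temperature by adding warmer medium. The other 16 libraries hold RNA isolated from the same cultures with the RNeasy and Direct-zol kits. The Phenol RNA was cleaned and treated with DNase on a column, and all libraries were made from polyA RNA in 1 batch and sequenced in 1 lane as single-end reads of 50 bases. A TPM, the unit of the table, is the share of a library that RSEM gave to a transcript after allowing for its length, so the values of a library add up to a fixed total and a rise of some transcripts lowers the rest. The table holds no read counts, and the depth of each library was not used here. The precision comes from the spread between replicates over all 24 libraries, the 16 kit libraries included. The kit libraries are splits of the same samples and not new cultures, but they were taken as independent. A p-value from all 24 libraries can therefore be smaller than the 4 Phenol pairs alone would give. The median replicate SD on the log2 scale was 0.158 and 0.155 in the Phenol groups and 0.107 to 0.144 in the kit groups.

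Budding yeast answers a rise in temperature with a broad and rapid change of its mRNAs. The heat shock factor Hsf1 drives chaperone genes through heat shock elements, and the paired factors Msn2 and Msn4 drive a wide set of stress genes through the stress response element, whatever the stress. At the same time the genes for ribosomal proteins and for the assembly of ribosomes, which take up much of the transcription of a growing cell, are turned down. The last change is part of the environmental stress response and is driven by loss of growth signals through the TOR and protein kinase A pathways.

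Of the 6685 transcripts in the table, 6137 had a mean of at least 1 TPM in at least 1 of the 6 sample types and were tested with limma. TPM were first divided by a scaling factor for each library, 0.776 to 0.899 in the unstressed and 0.934 to 0.991 in the heat-shocked Phenol libraries, and log2 was taken after adding a pseudocount of 1. The fold changes given on the log2 scale (log2FC) are on this log2(scaled TPM + 1) scale, which understates the change of low transcripts, while a plain fold is the ratio of the mean TPM as deposited. A transcript was called at a Benjamini-Hochberg FDR under 0.01. With this rule 3921 transcripts (63.9%) were called, 1906 higher (31.1%) and 2015 lower (32.8%) at 37 °C, and 3477 of the 3921 moved the same way in all 4 replicate pairs. When only the 8 Phenol libraries were fitted, 3107 were called with a block for the replicate and 3318 without it. On TPM as deposited the count was 3917, with 2457 higher and 1460 lower, because the median log2FC of all tested transcripts was then 0.19 instead of -0.00 with the scaling. TPM of the 4 heat-shocked and the 4 unstressed libraries did not overlap for 59.0% of the tested transcripts, with all heat-shocked values above for 37.9% and all below for 21.2%.

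The change was wide rather than large for most transcripts. The median of the absolute log2FC over all tested transcripts was 0.51, with a median standard error of 0.10. A change of 2-fold or more (log2FC of at least 1) was called for 726 transcripts that rose and 769 that fell, and a change of 4-fold or more for 261 and 263. Large changes were nearly all rises, since 52 called transcripts rose by 16-fold or more and 2 fell by as much. Transcripts called higher went from a mean of 160682 summed TPM to 507131, and those called lower from 652300 to 272901. The called transcripts were chosen on these values, so the sums describe the size of the shift and do not test it. At 30 °C the 100 most abundant transcripts held 38.4 to 41.9% of the TPM of a library, against 41.6 to 45.5% at 37 °C. The most abundant transcript was CCW12 (a mannoprotein of the cell wall) in every unstressed library, at 25413 to 34612 TPM. After heat shock it was SED1 (a stress-induced cell wall protein) in replicates 1 and 3 and TDH3 (glyceraldehyde-3-phosphate dehydrogenase) in replicates 2 and 4.

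The markers of the strain were read in the 8 libraries before the groups of genes. LEU2, MET17 (the gene of the met15 allele) and URA3 were at 0.10 TPM or below in each library. HIS3, whose his3∆1 allele removes only part of the gene, was at 73.5 to 87.0 TPM in the unstressed libraries and at 47.9 to 64.6 in the heat-shocked ones. The a-specific MFA2 was at 1128 to 1350 TPM before heat shock, and the alpha-specific MF(ALPHA)1 at 0 to 2.62. Of the other a-specific genes, STE2, BAR1, STE6 and AGA2 were at 147 to 1116 TPM and MFA1 at 170 to 515 in the unstressed libraries. Of the alpha-specific genes, MF(ALPHA)2 was at 0.97 TPM or below in each of the 8 libraries and STE3 at 4.47 to 6.51 before heat shock, while SAG1 was at 31.0 to 48.8 TPM. AGA2, an a-agglutinin subunit, fell from 928 ± 225 (SD, n = 4) to 190 ± 66.8 TPM (log2FC -2.51).

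Genes were put into 38 groups by function, listed by name with earlier results of these data known, and the groups are described by their counts of called members beside the 31.1% and 32.8% of all tested transcripts. Summed TPM rose 49.1-fold for the disaggregase and small heat shock proteins and fell most for the cytosolic ribosomal proteins, from 23.9% to 4.03% of all TPM. All sums are of TPM as deposited. The sums after heat shock were 1.01, 0.969 and 1.07 times those before for purine synthesis, the TRiC chaperonin with prefoldin and the cell wall proteins. After scaling, the median log2FC of these groups was -0.38, -0.38 and 0.01, and each had members that moved in opposite directions.

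**Figure D1:**
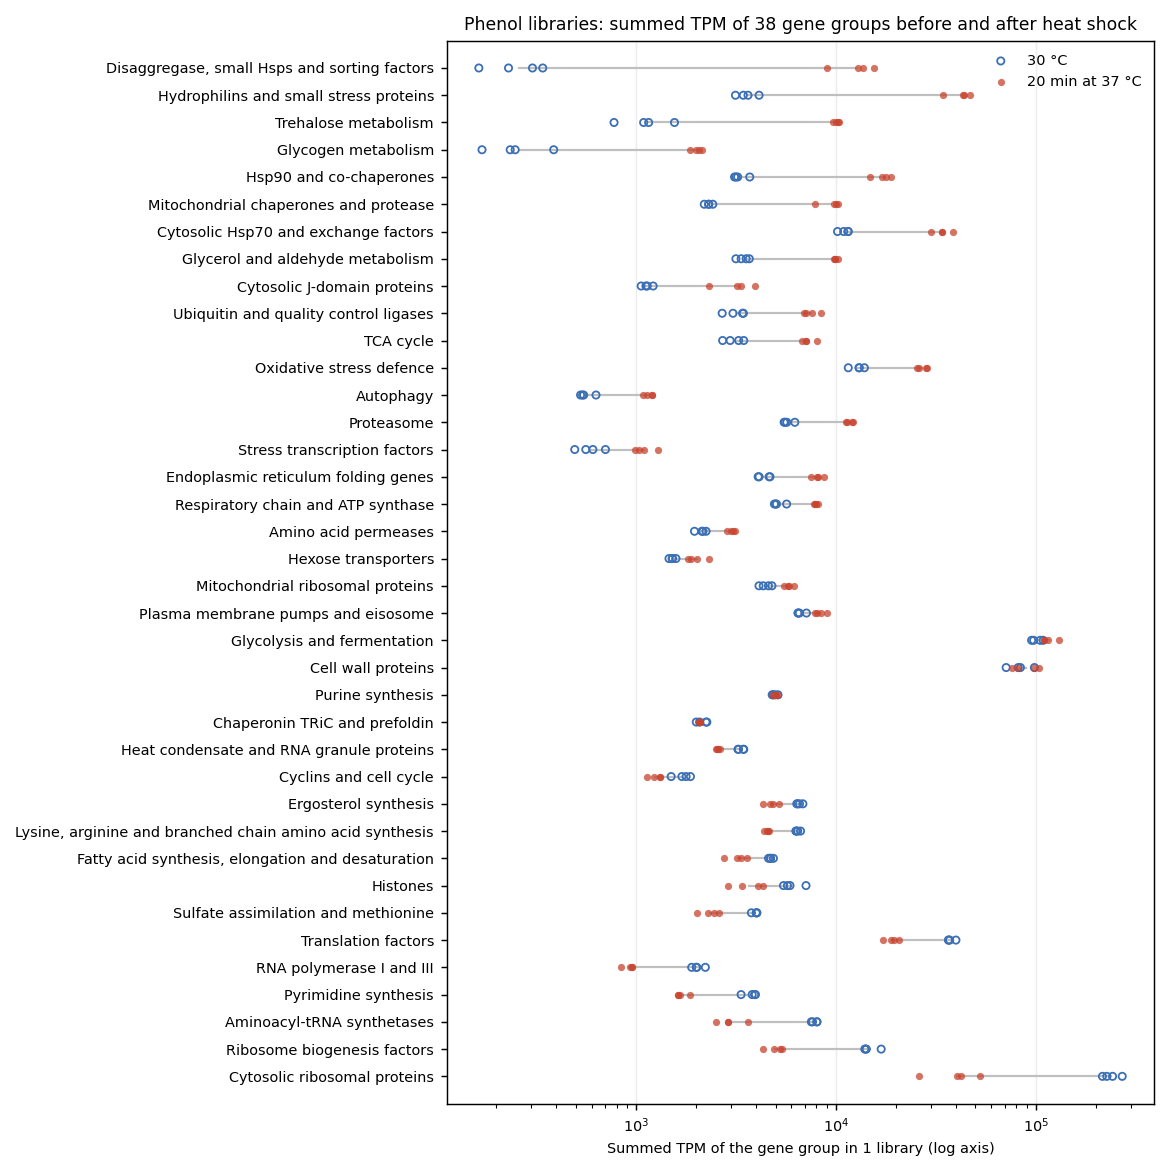
Summed TPM of 38 gene groups in each of the 8 Phenol libraries, on a log axis, with open circles for 30 °C, filled circles for 20 min at 37 °C and a grey line between the means. The cytosolic ribosomal proteins drop from 215900 to 271183 TPM at 30 °C to 25963 to 52481 at 37 °C, while the disaggregase group climbs from 164 to 341 TPM to 9067 to 15500.

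Chaperone transcripts moved in both directions. The disaggregase, the small heat shock proteins and the inducible Hsp70 and Hsp90 genes rose, and the Hsp70 of the ribosome and its partners fell. All 5 members of the group of disaggregase, small heat shock proteins and sorting factors rose, with a median log2FC of 4.65 against -0.00 for all tested transcripts. HSP26, which encodes a small heat shock protein that holds unfolded proteins in a form that can be refolded, had 25.97, 30.7, 56.0 and 17.9 TPM in the unstressed libraries and 5303, 7689, 7892 and 7057 in the heat-shocked ones. The groups were far apart, and the means differed 214-fold. Its log2FC of 7.60 (standard error 0.23, adjusted p = 1.2e-15) was the highest among the called transcripts that moved the same way in every pair and reached a mean of 10 TPM. Under the alternative fits its adjusted p was at most 4.8e-06. HSP26 lies on chromosome II from 382030 to 382674. HSP104, the disaggregase that pulls proteins out of aggregates, had 115, 170, 143 and 81.4 TPM before and 2680, 3926, 4448 and 3761 TPM after heat shock. It rose 29.1-fold (log2FC 4.67 ± 0.19 standard error, adjusted p = 6.2e-14). HSP42, the other small heat shock protein, rose from 58.9 ± 27.0 to 1697 ± 675 TPM (SD, n = 4). BTN2 and CUR1, which sort misfolded proteins to storage sites, rose from 15.2 ± 2.63 to 251 ± 126 TPM and from 25.6 ± 3.87 to 125 ± 48.1 TPM. Replicate 1 had the lowest heat-shocked value of HSP26, HSP104 and HSP42.

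The 200 bases that begin 350 before the start codon of HSP104 (RefSeq, build R64, chrXII:88273-88472, plus strand) are shown because they hold both kinds of stress element. Capitals mark the stress response element AGGGG or its reverse complement CCCCT, and the heat shock element on either strand, read here as GAA, TTC and GAA with 2 bases of any kind between neighbouring triplets.
HSP104: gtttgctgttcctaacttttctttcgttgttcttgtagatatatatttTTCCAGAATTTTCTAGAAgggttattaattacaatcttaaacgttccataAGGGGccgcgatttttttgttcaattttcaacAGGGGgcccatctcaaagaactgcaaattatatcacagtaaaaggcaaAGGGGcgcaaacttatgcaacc
In this window 2 overlapping heat shock elements lie from 302 to 285 bases before the start codon, and 3 stress response elements lie closer to the gene, the nearest from 172 to 168. The 150 bases that begin 380 before the start codon of SSA1 (chrI:141662-141811, minus strand, written in the direction of the gene) hold heat shock elements in 2 places and no stress response element.
SSA1: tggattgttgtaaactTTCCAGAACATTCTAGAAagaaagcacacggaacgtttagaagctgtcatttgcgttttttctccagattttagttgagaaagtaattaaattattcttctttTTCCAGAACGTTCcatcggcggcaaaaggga
The heat shock element was found in the 500 bases before the start codon in 14 of the 68 members of the groups for cytosolic Hsp70, Hsp90, disaggregase, J-domain, mitochondrial and endoplasmic reticulum chaperones (20.6%), against 1.49% of the 5992 promoters read. All 14 were among the 38 members called higher. From 250 bases before to 50 after the start codon it was found in 9 of the 68 (13.2%), against 0.784% of all. A match of these letters is not a measured binding site.

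Among the 12 genes of the cytosolic Hsp70 group, 7 rose and 5 fell, and each of the 12 was called. SSA4, the stress-induced Hsp70 on chromosome V (364589 to 366517), had 47.9, 58.8, 86.3 and 36.9 TPM at 30 °C and 8802, 10009, 12490 and 8798 TPM at 37 °C. It rose 174-fold (log2FC 7.27 ± 0.18 standard error, adjusted p = 4.7e-17) and was one of the 10 transcripts with the largest gain in TPM. SSA3, the other Hsp70 that is low without stress, rose from 27.9 ± 3.59 to 1133 ± 243 TPM (SD, n = 4). SSA1 and SSA2 make Hsp70 in unstressed cells too. SSA1 had 639, 760, 693 and 528 TPM before and 6196, 7053, 6959 and 7497 after (log2FC 3.20), and SSA2 rose from 3234 ± 267 to 10933 ± 1257 TPM (log2FC 1.55). These 2 genes share 57.9% and 58.2% of their sequences of 50 bases with other ORFs, the length of a read, so how RSEM split their reads affects each value and less so their sum, 3889 TPM before and 17860 after. The exchange factors SSE1, SSE2 and FES1 rose from 917, 41.0 and 93.5 TPM to 3276, 591 and 281 TPM. The 5 that fell act at the ribosome or are bound to the endoplasmic reticulum and nuclear membrane. SSB1, the ribosome-bound Hsp70, had 2734, 2451, 2806 and 2552 TPM before and 415, 312, 226 and 307 TPM after, an 8.36-fold fall (log2FC -3.30 ± 0.16 standard error, adjusted p = 8.8e-13). Its near copy SSB2 (43.2% of 50-base sequences shared) fell from 2038 to 301 TPM. ZUO1 and SSZ1, which form the partner complex of SSB1 on the ribosome, fell from 722 to 219 and from 574 to 188 TPM. SNL1, an Hsp70 cofactor of that membrane, fell from 50.5 to 31.8 TPM. SSB1 was above SSA1 in each unstressed library and below it in each heat-shocked one.

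Of the 12 genes of the Hsp90 group, 8 rose, 3 fell, and SGT1 (46.9 TPM before, 55.7 after) was not called. HSP82, the inducible Hsp90, had 176, 228, 185 and 137 TPM before and 3671, 4479, 4729 and 4129 TPM after (log2FC 4.35 ± 0.14 standard error, adjusted p = 1.5e-15). HSC82, the form that unstressed cells use, rose from 1393 ± 100 to 4514 ± 321 TPM (log2FC 1.49). HSP82 therefore went from 9.45 to 12.9% of the summed TPM of both Hsp90 genes to 47.2 to 51.1%. The co-chaperones CPR6 (a prolyl isomerase), STI1 (which joins Hsp70 to Hsp90), AHA1 (which speeds up the ATPase of Hsp90) and HCH1 rose from 179, 347, 208 and 168 TPM to 2142, 2636, 1559 and 813 TPM. The 3 that fell were PPT1 (a phosphatase of Hsp90), CNS1 and CPR7, from 51.7, 59.6 and 52.0 TPM to 18.6, 41.4 and 40.2 TPM.

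Of the 11 cytosolic J-domain proteins, which choose the clients of Hsp70, 4 rose and 4 fell, shares near those of all tested transcripts. On TPM as deposited 1 was called lower, and without replicate 4 the count was 2. SIS1 had 305, 359, 268 and 279 TPM before and 1129, 1761, 2327 and 1751 TPM after (log2FC 2.28), and YDJ1 rose from 414 ± 1.74 to 961 ± 174 TPM (log2FC 0.99, and 1.57 with quantile normalization). APJ1 and XDJ1 rose at lower levels, from 12.6 and 34.3 TPM to 27.99 and 66.8 TPM. JJJ1, which acts in the assembly of the large ribosomal subunit, fell from 31.1 to 14.9 TPM. The TRiC chaperonin and prefoldin, which fold newly made actin and tubulin, had fewer rises. Of their 14 genes 1 rose, CCT6, from 185 to 247 TPM, 9 fell (4 and 5 on TPM as deposited, and CCT6 not called without replicate 1, 2 or 4), and the group median was -0.38 (summed TPM 2147 ± 125 before and 2081 ± 18.8 after).

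**Figure D2:**
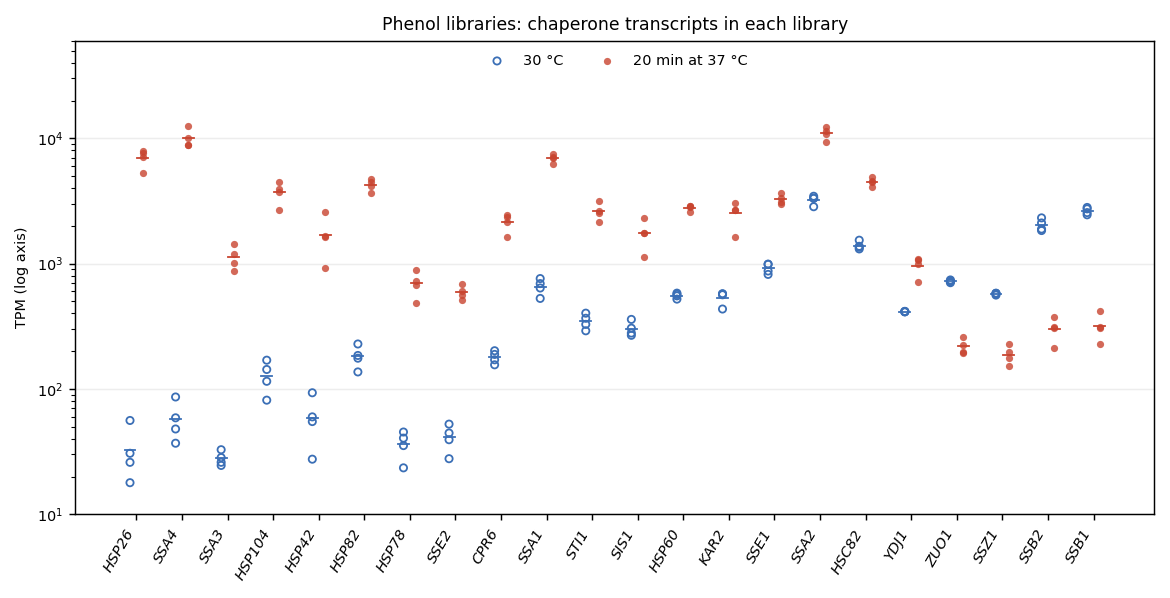
TPM of 22 chaperone transcripts in each Phenol library, on a log axis, with open circles for 30 °C, filled circles for 20 min at 37 °C and short lines for the means of 4 replicates. From HSP26 to YDJ1 each heat-shocked library lies above each unstressed one, and for ZUO1, SSZ1, SSB2 and SSB1 each lies below.

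Mitochondrial chaperones mostly rose, and those of the endoplasmic reticulum moved in both directions. In the mitochondrial group 8 of 11 genes rose, 2 fell, and MDJ2 (11.5 TPM before, 15.5 after) was not called. HSP78, the disaggregase of the mitochondrion, had 35.3, 45.3, 40.5 and 23.5 TPM before and 488, 723, 894 and 679 TPM after (log2FC 4.04 ± 0.21 standard error, adjusted p = 1.6e-12). HSP60 and HSP10, which form the mitochondrial chaperonin, rose from 556 ± 25.9 to 2792 ± 147 TPM and from 375 ± 73.7 to 2314 ± 489 TPM. SSC1, the mitochondrial Hsp70, rose from 892 to 2727 TPM and its partner MDJ1 from 97.3 to 492 TPM, whereas the exchange factor MGE1 fell from 191 to 130 TPM. In the endoplasmic reticulum group, 6 of 17 genes rose, 6 fell and 5 were not called, shares near those of all tested transcripts (median log2FC 0.06). On TPM as deposited 9 were called higher and 1 lower, and with only the 8 Phenol libraries and the replicate block 4 and 3. The rises were led by KAR2 (the Hsp70 of that compartment, 536 ± 68.3 to 2516 ± 613 TPM) and ERO1 (an oxidase for disulfide bonds, 103 to 413 TPM). PDI1, which forms disulfide bonds, went from 1645 to 2760 TPM (log2FC 0.54), with an adjusted p of 0.013 when only the 8 Phenol libraries were fitted with the replicate block. HAC1, whose unconventional splicing turns on the unfolded protein response, had 801 TPM before and 936 after and was not called. These TPM do not show its splicing, so whether that response was turned on was not measured.

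The small stress proteins gained more TPM than any other rising group. Of the 18 hydrophilins and small stress proteins, 17 rose, with a median log2FC of 3.49, and their summed TPM went from 3589 ± 413 to 42125 ± 5456, or from 0.359% to 4.21% of all TPM. HSP12, a small hydrophilic protein that binds membranes, had 258, 400, 360 and 332 TPM at 30 °C and 13492, 21577, 17354 and 19809 TPM at 37 °C. It rose 53.5-fold (log2FC 5.53 ± 0.18 standard error, adjusted p = 2.6e-15) and was second to SED1 in TPM gained. The gene lies on chromosome VI from 107256 to 107585. The 250 bases that begin 400 before its start codon (chrVI:106856-107105, plus strand) are shown for their 3 stress response elements, in capitals.
HSP12: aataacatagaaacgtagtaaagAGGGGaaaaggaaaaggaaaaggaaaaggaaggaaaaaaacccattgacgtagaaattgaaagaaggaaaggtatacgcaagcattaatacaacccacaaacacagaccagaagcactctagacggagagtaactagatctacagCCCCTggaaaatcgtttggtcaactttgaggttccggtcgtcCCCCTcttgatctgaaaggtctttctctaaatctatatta
The stress response element AGGGG, on either strand, was found in the 500 bases before the start codon in 14 of the 18 promoters of the group (77.8%), against 34.1% of the 5992 promoters read. DDR2 rose from 49.1 ± 30.7 to 2679 ± 1231 TPM, TFS1 (an inhibitor of carboxypeptidase Y) from 72.7 ± 23.1 to 2651 ± 212 TPM, and SPI1 (a cell wall protein) from 130 ± 38.9 to 3555 ± 813 TPM. PNC1, which turns nicotinamide into nicotinic acid, rose from 393 ± 128 to 4857 ± 385 TPM. SIP18, a phospholipid-binding hydrophilin, rose from 2.34 to 159 TPM. HSP32 rose too, but 100% of its 50-base sequences occur elsewhere, so its value is uncertain. The exception was MRH1, a plasma membrane protein, which fell from 1712 to 941 TPM (log2FC -1.07) and was not called with quantile normalization (-0.24, adjusted p = 0.035).

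Transcripts for enzymes of the carbohydrate stores rose in both branches, synthesis and breakdown, while the stores themselves were not measured. Trehalose is a disaccharide that protects proteins in heat, and glycogen is a storage polymer of glucose. All 9 trehalose genes and all 10 glycogen genes rose, with medians of 2.59 and 2.09, and their summed TPM rose 8.79-fold and 7.74-fold. TPS1, trehalose-6-phosphate synthase, had 209, 300, 215 and 154 TPM before and 2050, 1867, 2158 and 1844 TPM after (log2FC 3.00 ± 0.14 standard error, adjusted p = 3.6e-13). TSL1, a regulatory subunit of the same complex, rose from 166 ± 73.9 to 1843 ± 224 TPM and the phosphatase TPS2 from 86.2 to 436 TPM. PGM2 (phosphoglucomutase) and UGP1 (UDP-glucose pyrophosphorylase), which feed both stores, rose from 67.3 to 1931 TPM and from 413 to 2824 TPM. The trehalases NTH1 and ATH1, which degrade trehalose, rose with them, from 84.5 to 648 and from 15.9 to 86.5 TPM. GSY2 (glycogen synthase) rose from 115 to 769 TPM and GPH1 (glycogen phosphorylase, which degrades glycogen) from 32.5 to 558 TPM. The branching and debranching enzymes GLC3 and GDB1 rose from 9.75 and 19.7 TPM to 154 and 330 TPM. In both groups no unstressed value of any gene reached a heat-shocked one, and the unstressed library of replicate 4 had the lowest sum and that of replicate 2 the highest.

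Of the 27 genes of oxidative stress defence, 17 rose, 7 fell, and TRR1, TSA1 and CTA1 were not called. CTT1, the cytosolic catalase, had 21.04, 31.2, 20.5 and 11.1 TPM before and 640, 683, 664 and 536 TPM after (log2FC 4.73 ± 0.17 standard error, adjusted p = 9.3e-15). TSA2 (an inducible peroxiredoxin) rose from 19.8 to 464 TPM, while its main form TSA1 had 2356 ± 289 TPM before and 3284 ± 253 after (log2FC 0.28). PRX1, the mitochondrial peroxiredoxin, rose from 47.4 to 463 TPM, and SOD1 and SOD2, the cytosolic and mitochondrial superoxide dismutases, from 1424 and 312 TPM to 2587 and 991 TPM. The largest part of the summed TPM of the group came from AHP1, a thiol peroxidase, which went from 5026 ± 497 to 12285 ± 1230 TPM (log2FC 1.08). Glutaredoxins differed among themselves, since GRX1 and GRX2 rose from 164 and 144 TPM to 895 and 738 TPM, whereas GRX3 and GRX4, which act in iron sensing, fell from 113 and 64.8 TPM to 90.5 and 37.3 TPM.

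Of the genes for the stress factors Hsf1, Msn2 and Msn4, HSF1 and MSN4 rose as mRNAs and MSN2 was not called. The activity of the factors was not measured. HSF1 had 53.4, 53.7, 43.9 and 48.2 TPM at 30 °C and 99.8, 96.9, 109 and 97.3 TPM at 37 °C (log2FC 0.80 ± 0.07 standard error, adjusted p = 7.4e-09). MSN4 rose from 37.7 ± 8.81 to 67.1 ± 5.79 TPM (log2FC 0.64), and MSN2 had 80.5 ± 13.7 TPM before and 97.0 ± 9.78 after, with groups that overlapped (log2FC 0.07, adjusted p = 0.42). In the group of 13 stress transcription factors, 9 rose, 1 fell, and MSN2, CRZ1 and HOT1 were not called. USV1 and XBP1 rose most, from 9.25 to 124 TPM and from 18.1 to 113 TPM.

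Most genes for protein degradation rose, those of the proteasome within a narrow range. All 33 proteasome genes rose, with log2FC from 0.50 (RPN13 and SEM1) to 1.05 (PRE8), and in each of the 33 the heat-shocked libraries lay above the unstressed ones. Their summed TPM were 5684, 6236, 5574 and 5513 before and 11331, 12016, 12150 and 11240 after, a 2.03-fold rise. RPT3, an ATPase of the regulatory particle, had 154, 165, 158 and 147 TPM before and 327, 363, 361 and 339 TPM after (log2FC 0.95 ± 0.06 standard error, adjusted p = 4.1e-11). The 150 bases that begin 250 before the start codon of RPT3 (chrIV:1261431-1261580, plus strand) are shown for the proteasome associated control element GGTGGCAAA, in capitals, which is bound by the factor Rpn4.
RPT3: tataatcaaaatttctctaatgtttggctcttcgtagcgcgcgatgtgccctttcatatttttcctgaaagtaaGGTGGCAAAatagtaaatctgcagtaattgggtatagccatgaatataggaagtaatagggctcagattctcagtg
The element, on either strand, was found in 27 of the 33 promoters of the group (81.8%) in the window from 250 bases before to 50 after the start codon, against 1.18% of the 5992 read. RPN4 itself went from 56.6 ± 7.72 to 124 ± 38.5 TPM (log2FC 0.88, adjusted p = 4.1e-04), and without replicate 3, which had its highest heat-shocked value, its adjusted p was 0.011. Of the 18 genes for ubiquitin and quality control ligases, 15 rose, SAN1 fell, and RSP5 and RKR1 were not called. UBI4, which encodes ubiquitin repeats and is the stress gene for ubiquitin, had 104, 121, 118 and 68.0 TPM before and 1263, 1422, 1506 and 1377 TPM after (log2FC 3.57). RPS31, from which ubiquitin is also made as a fusion with a ribosomal protein, fell from 4022 ± 448 to 534 ± 146 TPM (log2FC -3.15). The ubiquitin-conjugating UBC4 and the segregase CDC48 rose from 1170 and 456 TPM to 2504 and 951 TPM. Of 26 autophagy genes, 21 rose and 1 fell, led by ATG8, the ubiquitin-like protein of the autophagosome membrane, from 17.5 ± 1.24 to 125 ± 24.1 TPM (log2FC 2.55).

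**Figure D3:**
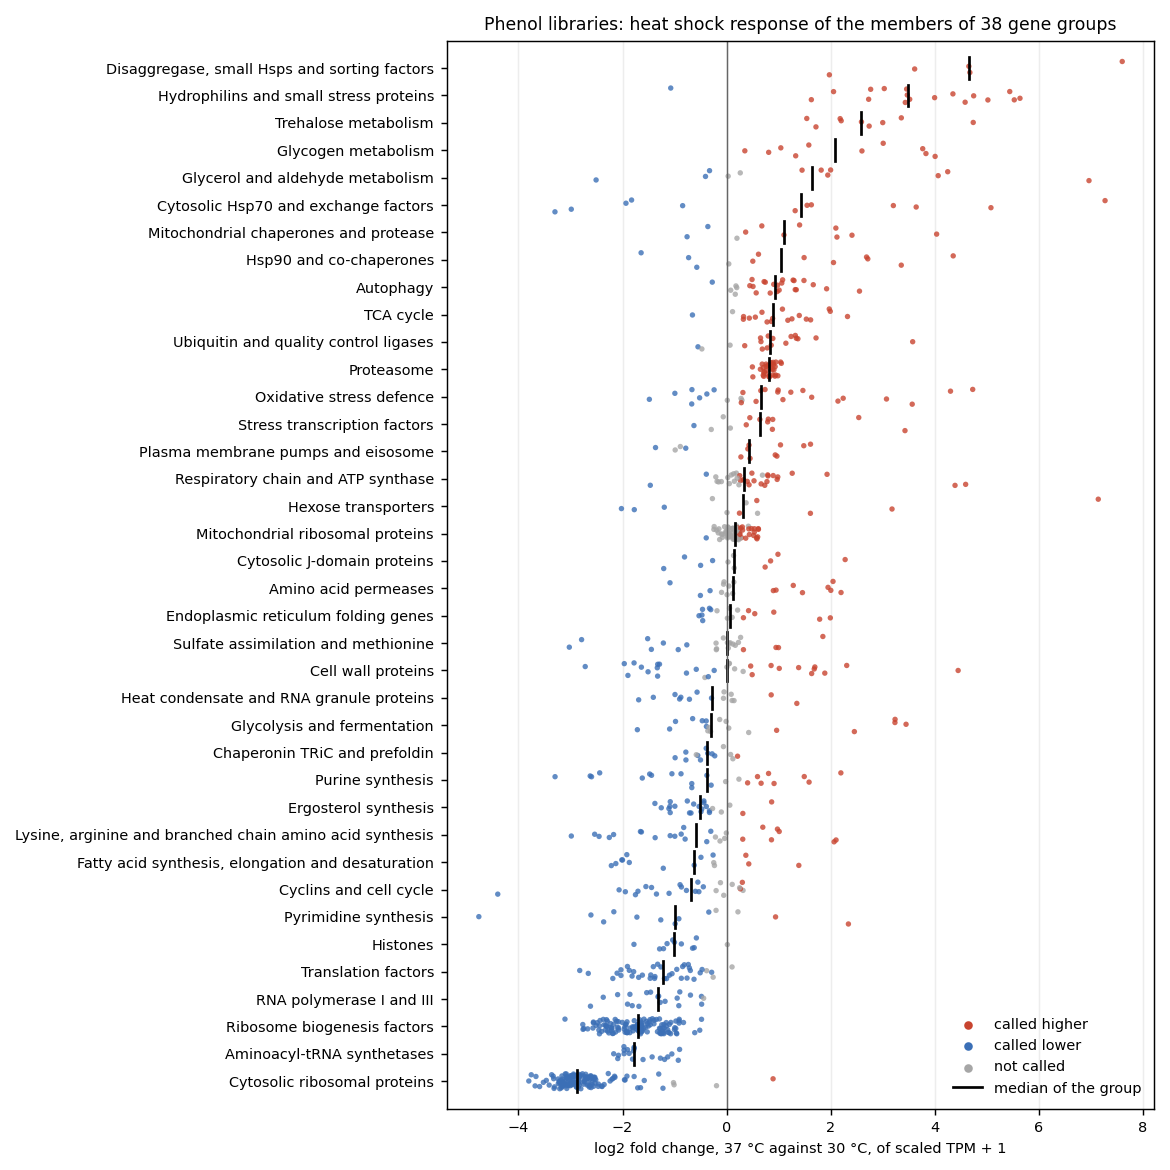
The log2 fold change of scaled TPM + 1, 37 °C against 30 °C, for each tested member of 38 gene groups in the Phenol libraries, with red points for members called higher, blue for called lower, grey for not called and a black bar for the median of the group. The 33 proteasome genes lie between 0.50 and 1.05, and the ribosomal proteins centre on -2.88.

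The cytosolic ribosomal proteins made up the largest fall. Of their 137 genes 133 fell, RPL15B rose, and RPS9A, RPL41A and RPL41B were not called, with a median log2FC of -2.88. Their summed TPM were 215900, 227033, 271183 and 242654 before and 52481, 40508, 25963 and 42107 after, that is 23.9% and 4.03% of all TPM. Of the heat-shocked libraries replicate 1 had the highest sum and replicate 3 the lowest. Both subunits fell alike, with medians of -2.90 for 81 genes of the large and -2.85 for 56 of the small subunit. For 26 of the 137 genes at least 20% of the 50-base sequences are shared with other ORFs, so the split of their reads is uncertain, but their median of -2.84 was close to the -2.88 of the other 111. RPP0, the base of the ribosomal stalk, had 4792, 4674, 4574 and 4972 TPM before and 950, 586, 552 and 681 TPM after (log2FC -3.02 ± 0.16 standard error, adjusted p = 3.1e-12). RPL9A, on chromosome VII from 227754 to 228329, had the lowest log2FC of the group, with 759, 996, 1096 and 1060 TPM before and 102, 75.2, 63.5 and 81.0 TPM after (-3.80). RPS26B, RPS0A, RPS22A, RPL26B, RPL14A and RPS9B were also among the 10 lowest of all called transcripts, with log2FC from -3.75 to -3.46. RPP0, RPS15 and RPS31 were among the 10 transcripts with the largest loss in TPM.

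The members not called lower are minor copies or share their reads. RPL15B had 57.0, 64.2, 54.4 and 78.7 TPM before and 129, 122, 158 and 136 TPM after (log2FC 0.89 ± 0.09 standard error, adjusted p = 4.0e-08), while its major copy RPL15A fell from 1823 to 277 TPM. RPL15B thus went from 3.37% to 33.0% of the summed TPM of the pair. RPS9A had 139 ± 22.1 TPM before and 143 ± 34.1 after, while RPS9B fell from 2087 to 230 TPM. RPL41A and RPL41B, a pair of very short genes that share 69.0% of their 50-base sequences, had 682 to 2962 and 381 to 2005 TPM before and 277 to 1327 and 200 to 978 TPM after (log2FC -1.01 and -1.02, below 0 under each alternative), with the highest unstressed value of each in replicate 3. Of the 71 mitochondrial ribosomal proteins 20 rose, a share near that of all tested transcripts, 1 fell and 50 were not called (median 0.16, summed TPM 4463 ± 293 before and 5809 ± 263 after). The count called higher was 48 on TPM as deposited, 11 with only the 8 Phenol libraries and 13 without replicate 4.

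Ribosome assembly fell as a block. All 126 ribosome biogenesis factors were called lower, with log2FC from -3.11 (NOP7) to -0.48 (FCF1) and a median of -1.70, and their summed TPM went from 14788 ± 1389 to 4960 ± 483. NOP7, which acts in the large subunit, had 233, 245, 201 and 286 TPM before and 35.2, 36.3, 24.5 and 30.4 TPM after (adjusted p = 4.3e-13). NOP1 and NOP56, proteins of the nucleolar particles that methylate rRNA, fell from 930 ± 110 to 180 ± 18.0 TPM and from 321 ± 10.1 to 55.3 ± 10.02 TPM. FCF1, the least changed, had an adjusted p of 0.011 when only the Phenol libraries were fitted. UTP5, a subunit of the particle that processes the small subunit rRNA, had 100, 87.9, 98.5 and 113 TPM before and 52.2, 58.0, 43.6 and 54.7 TPM after (log2FC -1.13 ± 0.10 standard error, adjusted p = 7.0e-09). The 150 bases that begin 250 before the start codon of UTP5 (chrIV:1267221-1267370, plus strand) are shown because they hold both elements that are known from promoters of this group, the PAC element GCGATGAG and the core of the rRNA processing element, AAAAATTTT, on either strand. Both are in capitals, as is 1 stress response element near the left end.
UTP5: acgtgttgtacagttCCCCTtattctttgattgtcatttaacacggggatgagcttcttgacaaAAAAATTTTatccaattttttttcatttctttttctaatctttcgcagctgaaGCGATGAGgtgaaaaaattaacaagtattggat
In the window from 250 bases before to 50 after the start codon, the PAC element was found in 70 of the 126 promoters (55.6%) and the rRNA processing element in 80 (63.5%), against 3.94% and 6.99% of the 5992 read. RNA polymerases I and III, which make rRNA and tRNA, fell in 19 of 20 genes, all but RPC17 (29.8 TPM before, 25.0 after). RPA135 and RPA190, the large subunits of polymerase I, fell from 224 ± 18.3 to 42.4 ± 11.7 TPM and from 110 ± 11.1 to 24.3 ± 6.58 TPM.

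Of the 38 translation factors 35 fell and none was called higher, with a median of -1.23. YEF3, the elongation factor that fungi add to the usual set, had 2778, 2542, 2640 and 2605 TPM before and 570, 493, 400 and 480 TPM after (log2FC -2.66 ± 0.11 standard error, adjusted p = 9.2e-14). TEF4, a subunit of elongation factor 1B, fell from 2237 ± 150 to 371 ± 91.0 TPM, and PAB1, the polyA-binding protein, from 957 ± 69.8 to 343 ± 39.7 TPM. TEF1 and TEF2 encode the same elongation factor 1A and share 92.5% of their 50-base sequences, so their separate values, 5231 to 1756 and 6797 to 5507 TPM, are uncertain. The call of TEF2 (log2FC -0.51, adjusted p = 0.0047) ended on TPM as deposited, with either Phenol-only fit and without replicate 1, 2 or 3, at adjusted p from 0.015 to 0.12. HYP2, TIF4632 and the RNA helicase DED1 were not called, with 2917, 67.6 and 336 TPM before and 2608, 64.7 and 419 after. All 20 cytosolic aminoacyl-tRNA synthetases fell, from -0.90 (GUS1, for glutamate) to -2.17 (DED81, for asparagine), and in each of the 20 the heat-shocked libraries lay below the unstressed ones.

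Transcripts of glycolysis moved in both directions. The summed TPM of the 19 genes of glycolysis and fermentation were 101880 ± 6358 before and 116705 ± 9933 after, 10.2% and 11.7% of all TPM. This 1.15-fold rise of the mean is on TPM as deposited. The lowest heat-shocked sum, 109800, was just above the highest unstressed one, 108989. After scaling, the median log2FC of the group was -0.31. Of the genes, 5 rose, 7 fell and 7 were not called, shares near those of all tested transcripts. With only the 8 Phenol libraries and the replicate block 3 were called lower. GLK1 (glucokinase) had 386, 558, 422 and 232 TPM before and 4673, 4696, 4911 and 4977 TPM after (log2FC 3.45 ± 0.20 standard error, adjusted p = 7.2e-12). GLK1 overlaps the ORF YCL042W, and the strand handling of the counts is not known, so some of its reads may come from either. HXK1, a hexokinase that is low on glucose, rose from 148 ± 70.5 to 1480 ± 174 TPM, and HXK2, the hexokinase of growth on glucose, fell from 1251 ± 26.5 to 441 ± 43.2 TPM (log2FC -1.71). GLK1 thereby went from 24.2% to 91.6% of the summed TPM of GLK1 and HXK2. ENO1 and TDH1, minor forms of enolase and glyceraldehyde-3-phosphate dehydrogenase, rose from 463 and 84.4 TPM to 2918 and 908 TPM. Of the 50-base sequences of ENO1 and TDH3, 23.6% and 24.4% are shared with other ORFs, so the split of their reads is uncertain. Among the most abundant members, CDC19 (pyruvate kinase) and PDC1 (pyruvate decarboxylase) fell from 12517 ± 1311 to 6771 ± 794 TPM and from 14450 ± 810 to 8483 ± 1011 TPM, and PGK1 (phosphoglycerate kinase) rose from 4508 ± 565 to 10105 ± 960 TPM. With only the 8 Phenol libraries and the replicate block, the adjusted p of PDC1 and PGK1 were 0.015 and 0.012. TDH3 had 22621, 21134, 27222 and 21225 TPM before and 30674, 38516, 32051 and 42023 TPM after. The groups did not overlap and TDH3 gained more TPM than all but SED1 and HSP12, yet its log2FC of 0.42 after scaling was not called (adjusted p = 0.062), while on TPM as deposited it was 0.63 (adjusted p = 0.0011).

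The hexose transporters also moved in both directions. Of the 12 tested, 5 rose and 3 fell, which for so few genes is not far from the shares of all tested transcripts. HXT5, a transporter of slow growth, had 1.59, 2.67, 4.20 and 1.45 TPM before and 472, 585, 599 and 417 TPM after (log2FC 7.14 ± 0.13 standard error, adjusted p = 6.4e-19), a 209-fold rise. HXT3, HXT2 and HXT1, which serve growth on glucose, fell from 711, 129 and 522 TPM to 202, 43.6 and 262 TPM. HXT7 rose from 89.6 to 885 TPM, but 95.1% of its 50-base sequences also occur in another ORF, so its value alone is uncertain.

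In several other pairs of related enzymes the shares of the forms moved, as the plot of the pairs shows. The pairs, and which gene comes first, were not set by a stated rule. In every pair drawn the share of the first gene rose, so the plot does not show how common such shifts are. TKL2, a transketolase of the pentose phosphate pathway, had 1.91, 2.88, 4.30 and 1.61 TPM before and 515, 642, 547 and 505 TPM after (log2FC 7.15). The main transketolase, TKL1, went from 1291 to 677 TPM (log2FC -1.14, and -0.29 with an adjusted p of 0.012 after quantile normalization), so that TKL2 went from 0.207% to 44.9% of the pair. GND2 (6-phosphogluconate dehydrogenase) rose from 6.85 ± 0.772 to 617 ± 73.1 TPM, against 691 to 454 TPM for GND1 (log2FC -0.81, and -0.28 after quantile normalization). ALD3, an aldehyde dehydrogenase with 40.4% of its 50-base sequences found elsewhere, rose from 15.02 ± 5.38 to 2192 ± 186 TPM. ALD4, the main mitochondrial form, rose from 122 to 2301 TPM and ALD5 fell from 104 to 20.3 TPM, so that ALD4 went from 53.9% to 99.1% of the pair. CYC7, the cytochrome c of low oxygen and stress, had 6.39, 21.4, 9.63 and 6.58 TPM before and 264, 305, 352 and 261 TPM after, while CYC1, the main form, fell from 70.5 ± 4.10 to 30.6 ± 12.003 TPM. Of the 19 genes of the citric acid cycle 17 rose and MDH2 fell, with IDH1 and IDH2 (isocitrate dehydrogenase) going from 176 and 424 TPM to 621 and 1410 TPM. Of the 35 genes of the respiratory chain and ATP synthase, 19 rose, CYC1 and ATP5 fell, and 14 were not called.

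**Figure D4:**
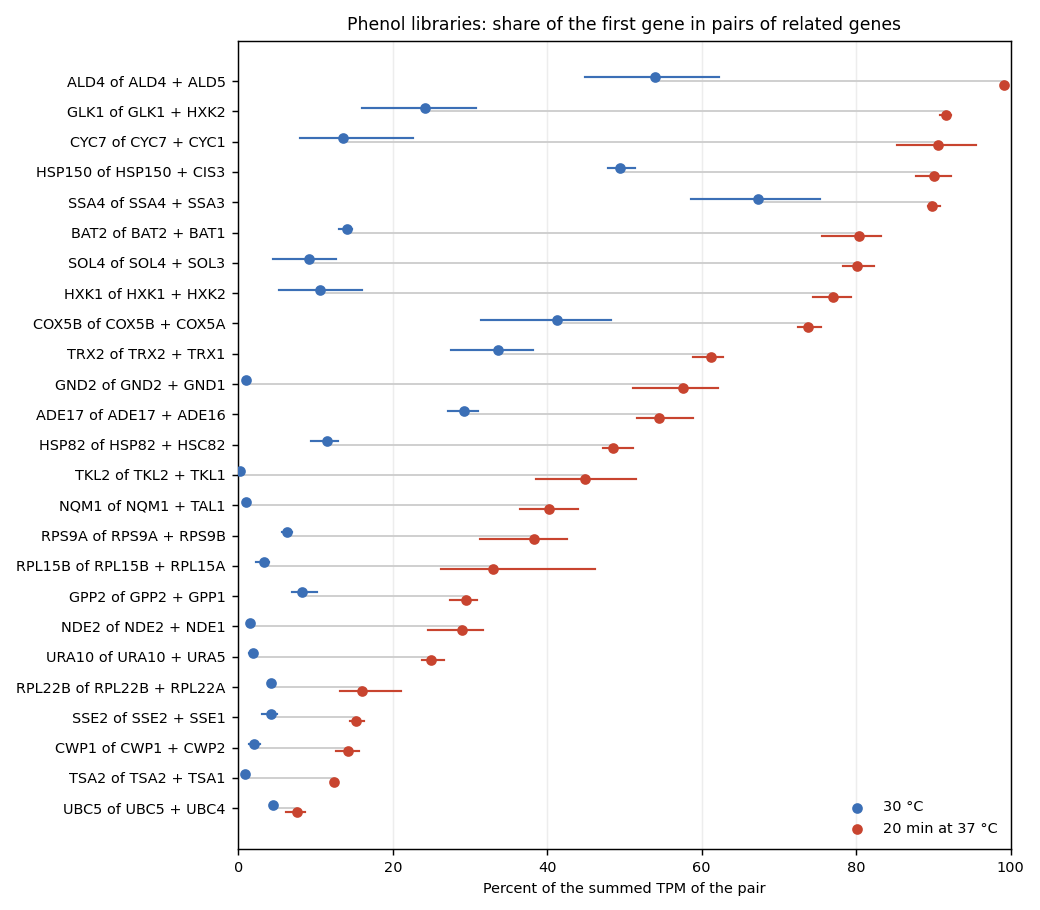
Share of the first gene in the summed TPM of 25 pairs of related genes in the Phenol libraries, with blue for 30 °C and red for 20 min at 37 °C, points for the share of the mean TPM and bars from the lowest to the highest of 4 libraries. No pair with 20% or more shared 50-base sequences in either gene is drawn. The pairs are examples, ordered so that the gene whose share rose comes first, and not all related pairs of the genome. GLK1 goes from 24.2% to 91.6% of GLK1 and HXK2, and CYC7 from 13.5% to 90.6% of CYC7 and CYC1.

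At the cell surface the most abundant transcripts traded places. SED1 had 12698, 11528, 6198 and 7775 TPM before and 33710, 21530, 35386 and 22628 TPM after, the largest gain of any transcript (log2FC 1.38 ± 0.22 standard error, adjusted p = 1.6e-05, and 0.013 with only the 8 Phenol libraries and the replicate block). CWP2, a mannoprotein of the growing cell wall, had 28211, 23688, 19276 and 25593 TPM before and 13612, 9918, 11317 and 9704 TPM after, the largest loss (log2FC -1.33 ± 0.17, adjusted p = 1.2e-06). CCW12 fell from 29283 ± 3853 to 19743 ± 1781 TPM (log2FC -0.77, adjusted p = 8.7e-04). Without replicate 1 its adjusted p was 0.015, and with only the 8 Phenol libraries 0.026 without the replicate block and 0.10 with it. HSP150 and PIR3, of the Pir family that is linked to wall glucan, rose from 2996 and 4.49 TPM to 11168 and 134 TPM, and CIS3 of the same family fell from 3059 to 1235 TPM. SLT2 and RLM1, the kinase and the factor of the cell wall integrity pathway, rose from 46.3 and 51.6 TPM to 168 and 122 TPM. Of the 31 cell wall genes tested 11 rose, a share near that of all tested transcripts, and 14 fell. The summed TPM of the group were 83846 ± 11273 before and 89757 ± 13308 after. PMA1, the proton pump of the plasma membrane, fell from 3361 ± 61.6 to 1513 ± 184 TPM, while NCE102 and LSP1 of the eisosome, a furrow of that membrane, rose from 680 and 430 TPM to 2189 and 1488 TPM.

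Growth enzymes outside the ribosome fell less evenly. URA1, dihydroorotate dehydrogenase of pyrimidine synthesis, on chromosome XI from 25215 to 26159, had 991, 1019, 854 and 935 TPM before and 56.0, 35.3, 32.1 and 38 TPM after. Its log2FC of -4.76 (standard error 0.15, adjusted p = 1.8e-15) was the lowest of the called transcripts with a mean of 10 TPM. Of the 13 pyrimidine genes 9 fell, among them URA7, URA4 and FUR1 from 251, 328 and 407 TPM to 47.1, 73.1 and 106 TPM. URA10 and URA8 rose, from 8.67 and 68.6 TPM to 53.8 and 153 TPM. HO, the endonuclease of mating type switching, fell from 69.3 ± 7.04 to 2.95 ± 1.06 TPM (log2FC -4.40). Of 24 ergosterol genes 19 fell and ERG9 and ERG28 rose, and of 15 fatty acid genes 10 fell, with OLE1 (the desaturase) from 446 to 111 TPM and FAS1 and FAS2 (fatty acid synthase) from 454 and 444 TPM to 143 and 127 TPM. FAA1, an acyl-CoA synthetase, rose from 181 to 540 TPM. Of the 11 histone genes 10 fell and none was called higher, with HTB2 from 1783 ± 90.5 to 598 ± 25.2 TPM. HHT2 was not called (830 TPM before, 981 after). The G1 cyclin CLN2 and RNR1 (ribonucleotide reductase) fell from 184 to 65.3 and from 249 to 68.1 TPM, and 16 of the 24 cell cycle genes fell.

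Transcripts outside these groups were also among the 10 with the highest log2FC. FMP45, a membrane protein of the eisosome family, had 13.99, 21.8, 18.2 and 13.1 TPM before and 1107, 1294, 1378 and 1147 TPM after (log2FC 5.94 ± 0.14 standard error, adjusted p = 3.9e-17). FMP16 rose from 14.5 ± 6.01 to 1064 ± 132 TPM and ARO10, a decarboxylase of amino acid breakdown, from 0.998 ± 0.302 to 144 ± 40.4 TPM, and for each the groups were far apart. The short ORF YCL048W-A rose from 2.33 to 525 TPM. Among the largest falls were YDR524C-B, from 6907 ± 535 to 3049 ± 286 TPM, and YBR191W-A, from 35.9 to 3.02 TPM with 2 heat-shocked libraries listed at 0. The log2FC of YBR191W-A, -3.997, was -2.65 with a pseudocount of 5.

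Across the genome the shares called higher and lower differed with the stress response, PAC, rRNA processing and proteasome elements. This is a description over promoters that are not independent of each other. Among the tested transcripts with an ORF in the reference, 69.7% of the 109 with at least 3 stress response elements in the 500 bases before the start codon were called higher and 12.8% lower. With none, 25.1% of 3774 were called higher and 39.0% lower. The median log2FC was -0.13 with none, 0.14 with 1, 0.55 with 2 and 1.06 with at least 3 copies. With 1 PAC element the median was -1.06 over 281 transcripts, of which 73.3% were called lower, against 32.4% with none. With 1 rRNA processing element the median was -0.66 over 520, of which 65.0% were called lower, against 31.0% with none. The 38 with 2 rRNA processing elements had a median of -1.51 and 86.8% called lower. With 1 proteasome element 71.6% of 95 were called higher, against 31.4% with none. In this window the element was found in 27 of the 33 proteasome promoters, whose genes were all called higher. The heat shock element was rare. Its 82 transcripts with 1 copy had a median of 0.28, with 47.6% called higher, against 31.8% with none. The share called lower, 30.5%, was near the 34.5% with none. Matches that overlap were counted as 1 copy.

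**Figure D5:**
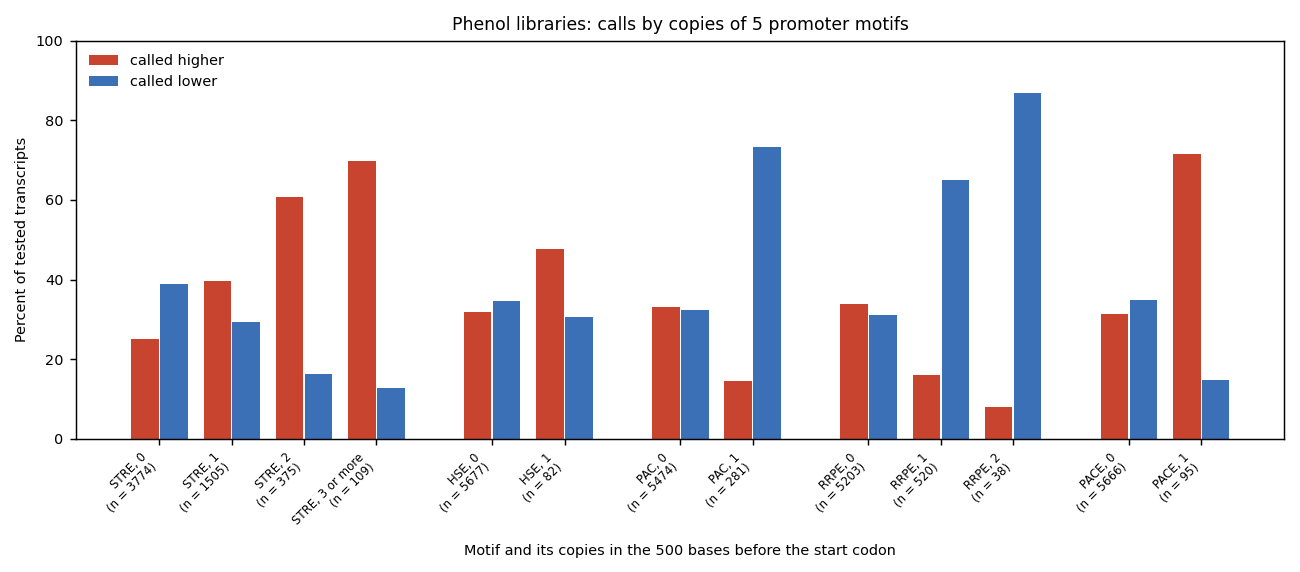
Percent of tested transcripts called higher (red) and lower (blue) at 37 °C in the Phenol libraries, by the number of copies of 5 motifs in the 500 bases before the start codon, with the number of transcripts under each pair of bars. STRE is AGGGG, HSE is the heat shock element, PAC is GCGATGAG, RRPE is AAAAATTTT and PACE is GGTGGCAAA, and classes under 20 transcripts are left out. The share called higher goes from 25.1% to 69.7% with the copies of STRE.

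The calls were also counted over the terms that the reference annotation gives with experimental evidence. Among the 334 GO terms (function, location and process together) with 15 to 300 tested transcripts, the highest shares called higher were in the proteasome storage granule (21 of 21) and proteasomal ubiquitin-independent catabolism (16 of 16). They were followed by proteasome-mediated ubiquitin-dependent catabolism (42 of 48) and proteasome assembly (15 of 19, with 3 called lower). Protein refolding had 11 of 15 called higher and 4 lower, nucleophagy 16 of 23 and 1 lower, and regulators of protein phosphatases 11 of 16 and 1 lower. The highest shares called lower were in ribosomal large subunit assembly (37 of 37), export of ribosomal subunits from the nucleus (25 of 25) and U3 snoRNA binding (15 of 15), and the other 7 of the 10 terms were steps of rRNA processing or precursors of the ribosome.

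The response in Phenol libraries was set against that of both kits by the difference of the log2FC in 1 limma model. None of the 6137 transcripts was called for a difference from RNeasy or from Direct-zol (0.0% and 0.0%). At an unadjusted p under 0.05 there were 267 and 270, where chance alone gives about 1 in 20. The model has no term for the sample that was split between the methods, which can make this test too cautious. The estimated correlation within culture and treatment was 0.21, and with it in the fit none was called either. The smallest adjusted p were 0.33 and 0.89. For 94.9% and 95.6% of the transcripts the estimated difference was under 0.5 on the log2 scale, with a median standard error of 0.14. The median log2FC of the ribosomal proteins was -2.88 here, against -2.97 with RNeasy RNA and -3.03 with Direct-zol RNA. In the same order it was 0.82, 0.77 and 0.78 for the proteasome and 4.65, 4.596 and 4.63 for the disaggregase group. HSP26 had log2FC of 7.60, 8.01 and 8.08, with differences of -0.41 ± 0.33 and -0.47 ± 0.33 (standard error), and SSA4 had 7.27, 7.47 and 7.61. The adjusted p of the differences in HSP26 and SSA4 were 0.96 to 0.99, which does not show that the responses were alike.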

How the data were processed

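RNA-seq libraries of BY4741 were compared, 4 unstressed and 4 heat-shocked, isolated with hot phenol, with the 16 kit libraries of the same cultures in the fit. The authors trimmed reads with Trimmomatic and aligned and quantified them with STAR and RSEM on the sacCer3 (R64) build. The strand setting of the counting was not given in the sources used here. The deposited TPM of 6685 transcripts were used as the authors made them, and read counts were not used. A deposited file of the authors' own edgeR comparisons, which holds fold changes and p-values, was not used. All TPM columns matched a sample label.

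TPM were divided by a scaling factor for each library (a trimmed mean of log ratios, with 30% of ratios and 5% of abundances trimmed at each end), 1 was added, and log2 values were fitted with limma 3.58.1 (R 4.3.3, trended prior variance) on 24 libraries, with a term for each of 6 sample types and a block for the culture. Transcripts with a mean of 1 TPM in at least 1 sample type entered (6137), p-values were adjusted by Benjamini-Hochberg over all of them, and an FDR under 0.01 was called. The replicate number pairs the samples because same-numbered samples come from 1 culture. The correlations of same-numbered deviations were 0.21, 0.05, -0.23 and -0.12, and those between different numbers -0.40 to 0.41. The pairing thus rests on the design and is not borne out by these values. The fit was tested on simulated data with independent noise and 200 changed transcripts, and otherwise equal means in all sample types. Changes of 1 and 2 on the log2 scale were recovered in 94.4% and 99.4%, with 0 calls in data without changes. The simulation held no wide shift and no correlation between libraries, so it did not test the scaling or the block. Gene positions, GO terms and promoters came from the RefSeq annotation of R64, in which 6006 of the 6685 names were found. Other steps ran in Python 3.11.15 (numpy 2.4.6, matplotlib 3.10.9, pandas 2.3.3, scipy 1.17.1). The promoter window of 500 bases and the printed windows were chosen after seeing the data.

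The members and lists were chosen with earlier results of these data known. The text names members of the lists, the called transcripts at both extremes of log2 fold change (10 each way, with 1 sign in all 4 pairs and a mean of 10 TPM), the 10 with the largest rise and fall in TPM, and the 10 GO terms with the highest share called in each direction. The pairs of related genes followed none of these rules. MFA1, MFA2, BAR1, STE2, STE3, STE6, AGA2 and other strain markers were read as checks. Alternatives were 3 other scalings, pseudocounts of 0.1 and 5, other filters, no replicate block, an estimated correlation, no variance trend, an FDR of 0.05, each replicate left out, and the 8 Phenol libraries alone.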

Additional observations from a re-analysis of the deposited data

Results flagged for a closer look

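The summed TPM of the 38 gene groups and the TPM of the 38 transcripts with the most extreme changes were examined in the 4 unstressed and the 4 heat-shocked Phenol libraries. In 6 of 152 sets of 4 values, all of them summed TPM, a library stood far from the other 3. Chance alone gives about 1 in 20. The ribosome biogenesis factors were at 16865.9 TPM in unstressed replicate 4, against 13969 to 14204 in the others. The respiratory chain and ATP synthase were highest in unstressed replicate 2, at 5672.83 TPM against 4929 to 5046, and so were the plasma membrane pumps and eisosome, at 7128.09 against 6470 to 6568. The translation factors were highest in unstressed replicate 3, at 39902.2 TPM against 36635 to 37140. The genes of sulfate assimilation and methionine were lowest in unstressed replicate 4, at 3780.49 TPM against 3995 to 4024. RNA polymerases I and III were lowest in heat-shocked replicate 3, at 837.93 TPM against 935 to 955.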

How the results depend on the processing

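The 3921 transcripts called became 3868 to 3932 with other scalings, 3901 and 3926 with pseudocounts of 0.1 and 5, 3775 with a minimum mean of 10 TPM, 4432 at an FDR under 0.05 and 3471 to 3701 with a replicate left out. With no replicate block the count was 3880, and with an estimated correlation 3832. With only the 8 Phenol libraries it was 3107 with the replicate block and 3318 without it. Of the 205 named genes called, 195 kept their call and direction under the 17 alternatives and 10 lost the call under at least 1. For 22 of them the log2 fold change moved by over 1.5 times, in 17 under quantile normalization. Of the uncalled genes, MSN2 ranged from -0.026 to 0.16 with a replicate left out, reversed without replicate 3. RPS9A was 0.012 on TPM as deposited, and ranged from -0.33 to 0.13 with a replicate left out, reversed without replicate 3. The cause was not tested. The depth of each library was not used, TPM are shares of a library, and near copies share reads, so single values of such genes are uncertain. The samples are 1 time point of 1 strain.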

Other observations

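Amino acid and nucleotide synthesis moved in both directions within a pathway. Of 23 purine genes 8 rose and 13 fell, with ADE17, which acts in the last steps of inosinate synthesis, from 92.3 ± 5.83 to 492 ± 34.8 TPM (SD, n = 4) and IMD2, which makes the precursor of guanine nucleotides, from 73.6 ± 8.51 to 7.96 ± 2.34 TPM. In the synthesis of branched chain amino acids ILV3 and ILV5 fell from 424 ± 25.99 to 61.6 ± 10.8 TPM and from 1453 ± 189 to 535 ± 87.4 TPM. Of the branched chain aminotransferases, the cytosolic BAT2 rose from 92.5 ± 1.97 to 463 ± 25.9 TPM and the mitochondrial BAT1 fell from 567 ± 44.7 to 113 ± 18.5 TPM, so that BAT2 went from 14.02% to 80.4% of their sum. SAM1, which makes S-adenosylmethionine, fell from 665 ± 33.6 to 97.6 ± 29.1 TPM.

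Of 18 amino acid permeases 8 rose and 3 fell. GAP1, the general permease, rose from 21.1 ± 2.33 to 115 ± 8.14 TPM, and TAT1, a tyrosine permease, fell from 228 ± 24.2 to 123 ± 9.17 TPM. Of 15 proteins of heat condensates and RNA granules 2 rose, NGR1 and RIE1 (5 on TPM as deposited), and 8 fell, among them the granule protein PUB1 from 431 ± 30.0 to 250 ± 16.8 TPM.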
